A study of Mus musculus with 24 samples.

Results

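Use of the T cell receptor alpha V segments was measured in activated mouse CD8 and CD4 T cells that carry, lack or are heterozygous for Pou2af1 in T cells. The segments are the genes named Trav, and all 130 of them in the count table were taken, of 55401 genes in all; names with dv, for segments that can also rearrange to the delta chain, were included. The value of a segment in a library is its share, the percentage of that library's summed Trav counts, and 58 segments with 100 or more counts over the 24 libraries are described. A further 52 Trav genes were at 0 in every library and 20 had 1 to 99 counts. On either side of that limit lay Trav9n-4 with 102 and Trav13n-1 with 111 counts, and Trav6n-5 with 97 and Trav6d-3 with 89 counts.

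T cells were sorted from spleens of C57BL/6 mice aged 12 weeks and activated in culture for 2 days with antibodies to CD3 and CD28, and polyadenylated RNA was sequenced. There were 6 groups of 4 libraries. The knockout (KO) groups, CD8 and CD4, were CD4.Cre+ with Pou2af1fl/fl; the heterozygous (Het) groups were CD4.Cre+ with Pou2af1fl/+; the wild-type (WT) groups were CD4.Cre- with Pou2af1fl/fl, so Cre and the loss of Pou2af1 cannot be told apart between KO and WT. The Cd4 promoter is active in thymocytes that later become either CD4 or CD8 T cells, so the Cre acts in both lineages. Pou2af1 encodes OCA-B, a coactivator that binds the octamer factors Oct1 and Oct2. Its level was 0.758 to 3.86 CPM (counts scaled to an equal total per library) in KO libraries, 13.7 to 24.6 CPM in Het libraries and 22.3 to 50.1 CPM in WT libraries.

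The alpha chain of the T cell receptor is assembled in thymocytes by joining 1 of many V segments to 1 of many J segments, and the joined exon is spliced to the constant exon of Trac. The V segment encodes most of the part of the chain that meets the peptide and the MHC molecule, and mature CD8 and CD4 T cells recognise MHC class I and class II. The mouse locus holds large duplicated blocks, and segments of the copies carry the letter d or n in their names, as in Trav16d-dv11 and Trav16n beside Trav16. Trav1 is the V segment of the receptors of mucosal-associated invariant T (MAIT) cells, and Trav11 that of invariant natural killer T (NKT) cells. As the samples are bulk, fewer cells using a segment and less of its RNA per cell cannot be told apart.

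The 3 Trav16 segments and the 5 Trav14 segments below include the segments with the largest log2 changes between CD8 and CD4 cells in each direction. Shown are the last bases of each V exon, 5′ to 3′ on the plus strand of chromosome 14 (GRCm38, from GENCODE M21 transcripts), and capitals mark bases that are not the most common base of that family's set at that position. The Trav16 segments differed from each other at 3 to 5 of 300 bases.
Trav16 (chr14:53743406-53743705): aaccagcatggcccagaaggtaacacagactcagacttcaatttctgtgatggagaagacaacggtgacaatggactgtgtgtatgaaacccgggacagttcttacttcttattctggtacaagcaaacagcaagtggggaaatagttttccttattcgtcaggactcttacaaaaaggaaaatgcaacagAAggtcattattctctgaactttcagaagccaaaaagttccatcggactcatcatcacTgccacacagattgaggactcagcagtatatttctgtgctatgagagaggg
Trav16n (chr14:53351322-53351621): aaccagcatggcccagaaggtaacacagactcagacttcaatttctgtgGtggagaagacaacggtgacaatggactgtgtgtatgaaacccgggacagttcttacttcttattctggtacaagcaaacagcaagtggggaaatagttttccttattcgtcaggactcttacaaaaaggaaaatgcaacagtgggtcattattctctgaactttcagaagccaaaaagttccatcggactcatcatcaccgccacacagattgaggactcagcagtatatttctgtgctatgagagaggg
Trav16d-dv11 (chr14:53047522-53047821): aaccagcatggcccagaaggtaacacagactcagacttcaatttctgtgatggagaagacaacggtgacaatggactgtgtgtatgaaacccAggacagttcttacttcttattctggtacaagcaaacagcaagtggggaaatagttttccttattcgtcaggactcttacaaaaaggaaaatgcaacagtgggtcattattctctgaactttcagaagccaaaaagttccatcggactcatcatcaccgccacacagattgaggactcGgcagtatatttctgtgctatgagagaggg

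Trav14-1 differed at 18 or 19 of 290 bases from the other Trav14 segments shown, and Trav14-3, Trav14n-3 and Trav14d-3-dv8 differed from each other at 6 to 10.
Trav14-1 (chr14:53554269-53554558): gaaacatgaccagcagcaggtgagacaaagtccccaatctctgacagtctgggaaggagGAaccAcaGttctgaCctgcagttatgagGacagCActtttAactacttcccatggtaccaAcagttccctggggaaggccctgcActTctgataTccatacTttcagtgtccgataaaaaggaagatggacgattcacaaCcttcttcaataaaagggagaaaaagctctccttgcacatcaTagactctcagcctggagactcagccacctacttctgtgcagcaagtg
Trav14-2 (chr14:53640936-53641225): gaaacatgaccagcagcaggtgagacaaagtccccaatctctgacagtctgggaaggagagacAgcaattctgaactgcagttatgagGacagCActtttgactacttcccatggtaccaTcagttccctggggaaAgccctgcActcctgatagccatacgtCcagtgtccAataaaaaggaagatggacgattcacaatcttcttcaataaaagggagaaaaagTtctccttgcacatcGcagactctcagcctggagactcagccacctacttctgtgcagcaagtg
Trav14-3 (chr14:53763405-53763694): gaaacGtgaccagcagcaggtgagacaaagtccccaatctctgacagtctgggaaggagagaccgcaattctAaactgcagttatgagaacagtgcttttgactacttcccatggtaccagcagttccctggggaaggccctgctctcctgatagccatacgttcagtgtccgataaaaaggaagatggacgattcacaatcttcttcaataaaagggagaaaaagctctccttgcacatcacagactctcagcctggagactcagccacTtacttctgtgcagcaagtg
Trav14n-3 (chr14:53370286-53370575): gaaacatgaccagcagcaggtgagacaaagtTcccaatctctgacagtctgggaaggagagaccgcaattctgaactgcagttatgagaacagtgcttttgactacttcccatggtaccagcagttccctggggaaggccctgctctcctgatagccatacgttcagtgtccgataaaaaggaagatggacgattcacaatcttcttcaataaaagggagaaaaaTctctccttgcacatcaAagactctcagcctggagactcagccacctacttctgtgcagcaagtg
Trav14d-3-dv8 (chr14:53078756-53079045): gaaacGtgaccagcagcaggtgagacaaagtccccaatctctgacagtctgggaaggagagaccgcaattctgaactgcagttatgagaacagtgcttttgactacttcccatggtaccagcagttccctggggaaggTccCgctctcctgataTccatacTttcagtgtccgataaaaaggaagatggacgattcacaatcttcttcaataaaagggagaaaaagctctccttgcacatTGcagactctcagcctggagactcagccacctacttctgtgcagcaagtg

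Counting depth set the precision of every share. Libraries held 11944120 to 21760793 gene counts, of which 1021 to 1986 (median 1301) were Trav counts. A count of 3 therefore corresponded to a share of 0.151 to 0.294%, which is the limit that a count of 0 allows. The 58 segments held 97.77% of the 31842 Trav counts of the series. Within the 6 groups the chi-square of Trav counts per degree of freedom was 1.01 to 1.45, so that replicates differed little beyond counting error, against 3.253 over all 24 libraries. The 12 libraries of each cell type matched their sort: Cd8a was at 636 to 770 CPM in CD8 and 0 to 0.664 CPM in CD4 libraries, and Cd4 at 0.208 to 1.75 CPM in CD8 and 450 to 553 CPM in CD4 libraries. The labels do not say that replicates came from separate mice, so p-values measure the spread between these libraries.

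The amount of Trav RNA as a whole was close in both cell types. Trav counts summed to 80.0 to 110.7 CPM in CD8 libraries and 83.9 to 101.1 CPM in CD4 libraries. Trac, the constant region, was at 333 to 437 CPM in CD8 and 371 to 419 CPM in CD4 libraries, with a log2 change of -0.03 (SE 0.05, adjusted p = 0.614, edgeR's quasi-likelihood test). Per 100 counts of Trac there were 24.6 ± 0.811 Trav counts in CD8 libraries and 22.4 ± 1.17 in CD4 libraries (SD, n = 12 each), and the ranges of 23.5 to 25.8 and 20.97 to 24.4 overlapped.

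The copies of the duplicated blocks were counted unevenly. Of the 56 Trav genes with no copy letter 41 were among the 58 segments and 7 were at 0, whereas 8 of 40 genes with the letter d and 9 of 34 with the letter n were among the 58, and 24 and 21 of them were at 0. Genes with no letter held 74.11% of Trav counts, those with n 14.85% and those with d 11.05%. Reads that map to several places were a separate line of the deposited table (17.5 to 18.5% of reads) and were not given to genes. For each of the 110 V genes that are not pseudogenes, the percentage of its 75-base stretches found in no other annotated transcript was set beside its counts: Spearman's rho over these genes was 0.79, with genes as points and not replicates, and it was 0.79 and 0.80 with stretches of 50 and 100 bases.

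Of the 41 such V genes at 0, 37 had no unique 75-base stretch and 40 had under 10% unique stretches. Of all 38 V genes with no unique stretch, 1 had any counts and none reached 100. Trav11 and Trav11d, the NKT segments, share their 75-base stretches with each other and were at 0 in all 24 libraries; their copy Trav11n, annotated as a pseudogene, had 41 counts. Trav14d-1, Trav14n-1, Trav14d-2 and Trav14n-2 likewise had 0% unique stretches and 0 counts. A count of 0 for such a segment therefore does not measure its use, and a level for a segment with few unique stretches covers only part of it. Among the 58 segments the percentage of unique stretches was 13.8 at the lowest and 79.2 at the median.

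**Figure D1:**
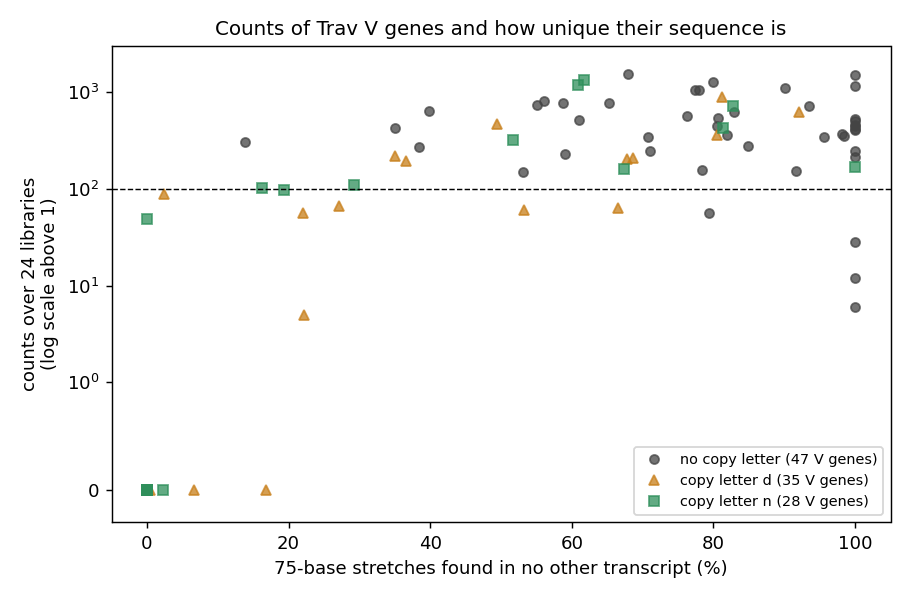
Counts of each of the 110 Trav V genes summed over 24 libraries (vertical axis, log scale above 1) against the percentage of its 75-base stretches found in no other annotated transcript (horizontal axis), with marks by copy letter and a dashed line at 100 counts. Most genes at 0 sit at the left edge, and no gene with 0% unique stretches lies above the line.

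Use was spread over many segments. The mean share of the 58 over the 24 libraries, each library weighted equally, ran from 0.324% for Trav9n-4 to 4.79% for Trav16, with a median of 1.35%, and the 10 largest held 37.74%. These 10 were, in falling order, Trav16, Trav14-1, Trav14n-3, Trav3-3, Trav16n, Trav7-5, Trav12-2, Trav14-2, Trav13-1 and Trav14d-3-dv8. The inverse Simpson index, the number of equally used segments that would give the same evenness, was 31.5 to 37.6 (median 35.0) in CD8 libraries and 37.7 to 41.8 (median 39.3) in CD4 libraries. The CD8 libraries thus lay below all CD4 libraries on this index. The largest share in a library was 6.22 to 8.97% in CD8 and 4.603 to 6.67% in CD4 libraries.

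In percentage points of the summed Trav counts, the Trav16 and Trav14 families differed most between CD8 and CD4 cells. The Trav16 family, of 3 segments, made up 15.3 ± 1.30% of Trav counts in CD8 libraries and 4.41 ± 0.705% in CD4 libraries (SD, n = 12 each). The Trav14 family, of 9 genes, made up 13.9 ± 1.24% in CD8 libraries and 21.2 ± 1.38% in CD4 libraries. Trav4 stood at 3.73 ± 0.453% in CD8 and 6.81 ± 0.662% in CD4 libraries, Trav7 at 8.91 ± 0.906% and 11.6 ± 0.704%, and Trav15 at 2.18 ± 0.440% and 0.995 ± 0.248%. In these 5 of the 18 families with a described segment, the 12 CD8 libraries did not overlap the 12 CD4 libraries. Of all tested genes, 10% did not overlap on the CPM scale, a value for single genes and not for sums over a family. The Trav12 family was at 7.84 ± 1.03% in CD8 and 4.77 ± 0.731% in CD4 libraries, and the Trav8 family at 8.47 ± 0.883% and 6.85 ± 0.458%; both were higher in the CD8 library of all 12 same-numbered pairs, with ranges that overlapped.

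**Figure D2:**
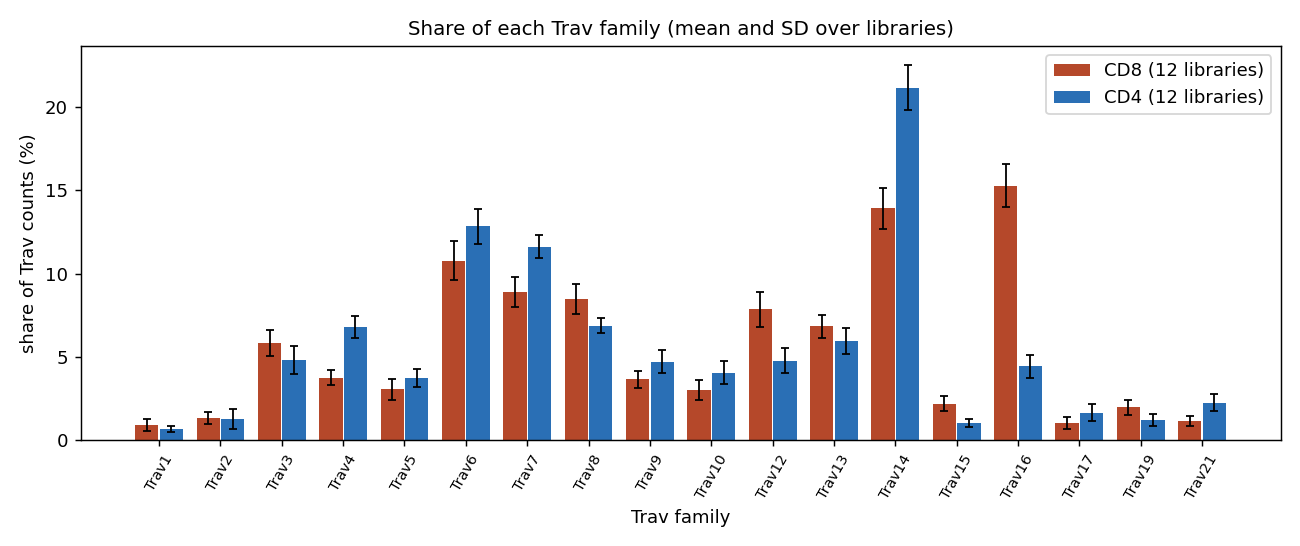
Share of each Trav family with a described segment, as bars of the mean over 12 CD8 libraries (left bar) and 12 CD4 libraries (right bar) with the SD; the vertical axis is the percentage of Trav counts. The Trav16 family stands at 15.3% in CD8 and 4.41% in CD4 libraries, and the Trav14 family at 13.9% and 21.2%.

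Trav16 had the largest share of all. It was at 8.97, 7.45, 7.29 and 8.05% in CD8 KO libraries, 6.58, 6.59, 6.22 and 6.86% in CD8 Het libraries and 6.09, 7.45, 8.08 and 7.74% in CD8 WT libraries. In CD4 cells it was at 1.92, 2.21, 3.01 and 1.94% in KO libraries, 1.92, 1.76, 2.46 and 2.55% in Het libraries and 2.53, 2.38, 2.77 and 2.06% in WT libraries. Every CD8 library was above every CD4 library, and within CD8 cells every KO library was above every Het library, while WT overlapped both; the 3 CD4 groups overlapped. The lowest CD8 share had an exact 95% binomial interval of 4.88 to 7.50%, and the highest CD4 share one of 2.17 to 4.06%; these cover counting error only.

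The copies Trav16n and Trav16d-dv11 showed the same direction. Trav16n was at 4.84, 5.82 and 6.66% (lowest, median and highest) in CD8 libraries and 0.794, 1.60 and 2.33% in CD4 libraries. Trav16d-dv11 was at 1.54, 2.20 and 3.23% in CD8 libraries and 0.230, 0.610 and 1.03% in CD4 libraries, where the lowest value is 3 counts. Both were separated without overlap. In the fit across all genes, with the mean over the 3 genotypes, the log2 change of CD8 over CD4 was 1.77 (SE 0.11, adjusted p = 5.94e-12) for Trav16, 2.06 (SE 0.14, adjusted p = 3.91e-11) for Trav16n and 1.92 (SE 0.21, adjusted p = 8.41e-08) for Trav16d-dv11. Between 49.5 and 67.9% of their 75-base stretches were unique, so reads that fall wholly in stretches shared by the copies are not in these counts.

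Within the Trav14 family the segments split. Trav14-1 was at 4.21, 5.42 and 7.05% in CD8 libraries and 2.39, 3.68 and 4.85% in CD4 libraries. It was higher in CD8 cells, with a log2 change of 0.66 (SE 0.13, adjusted p = 0.000130, edgeR). The CD8 library was higher in all 12 same-numbered pairs, though the ranges overlapped. In Het replicate 4 the shares were nearly equal, at 4.2122% in CD8 and 4.2116% in CD4. The log2 change was 1.08 with replicates 1 and 2 alone and 0.26 (adjusted p = 0.129) with replicates 3 and 4 alone, a split added after the data were seen. All of its 75-base stretches were unique.

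The other 4 described Trav14 segments were lower in CD8 cells. Trav14n-3 was at 2.18, 2.92 and 3.38% in CD8 libraries and 3.81, 5.74 and 6.67% in CD4 libraries. Trav14d-3-dv8 was at 0.686, 1.62 and 2.18% in CD8 libraries and 2.77, 4.13 and 4.94% in CD4 libraries. Trav14-3 was at 1.04, 1.46 and 2.44% in CD8 libraries and 3.00, 3.43 and 4.21% in CD4 libraries. For these 3 segments no CD8 library reached a CD4 library. Trav14-2, at 1.74, 2.35 and 3.77% in CD8 libraries and 3.29, 4.17 and 4.96% in CD4 libraries, overlapped but was lower in the CD8 library of all 12 pairs. The log2 changes were -0.85 (SE 0.11), -1.33 (SE 0.17), -1.10 (SE 0.14) and -0.61 (SE 0.12), with adjusted p-values of 1.65e-06, 7.74e-07, 5.70e-07 and 0.000198, in the order Trav14n-3, Trav14d-3-dv8, Trav14-3 and Trav14-2. Without Trav14-1 the family summed to 8.42 ± 0.923% in CD8 libraries and 17.4 ± 1.07% in CD4 libraries. The segments that are close in sequence, Trav14-3, Trav14n-3 and Trav14d-3-dv8 as printed above, were all lower, and the most different one, Trav14-1, was higher.

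**Figure D3:**
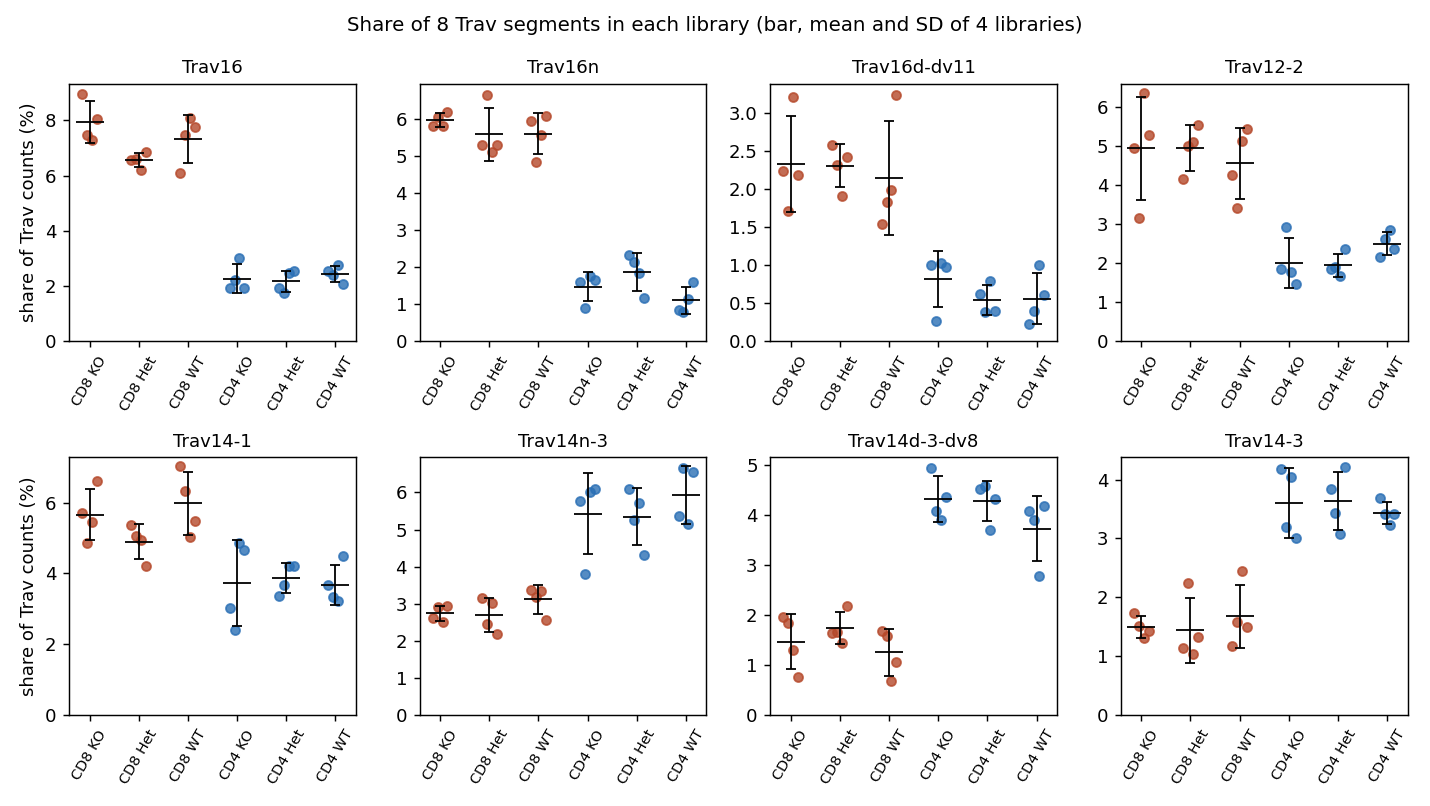
Share of Trav counts (%) of 8 segments in each library, in the order CD8 KO, CD8 Het, CD8 WT, CD4 KO, CD4 Het and CD4 WT; points are libraries, and the line and bar are the mean and SD of 4. The 3 Trav16 segments and Trav12-2 are higher in every CD8 library than in any CD4 library, Trav14n-3, Trav14d-3-dv8 and Trav14-3 lower in every CD8 library, and Trav14-1 overlaps.

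Across all segments, 52 of the 58 passed the filter on low counts and were tested, and 34 of them were called at an adjusted p under 0.05 (Benjamini-Hochberg over 13288 genes): 18 higher and 16 lower in CD8 cells. Of all tested genes, 54.6% were called, 27% higher and 27.6% lower, so the number of calls is not far above that of other genes. Of the segments called lower, Trav4-2, Trav9-1, Trav7d-4 and Trav6d-5 did not pass the filter on low counts in CD8 libraries taken alone. Of those called higher, Trav1, Trav3-1 and Trav7d-3 did not pass it in CD4 libraries taken alone. Such segments entered the test only through the cells where they are higher. The median size of the log2 change was 0.58 over the 52 segments and 0.21 over all tested genes. Comparisons of genotypes, where no segment was called, also had a larger median size over segments, 0.13 to 0.21 against 0.06 to 0.10. The larger size is therefore not particular to CD8 against CD4. With a log2 change of at least 1 in size 12 segments were called, as were 9.61% of all tested genes. When libraries were scaled by their summed Trav counts, which moved the median log2 change of all genes by -0.11, 34 were called again but with 13 higher and 21 lower, and 29 were called on both scales. On the share scale 11 of 58 segments did not overlap between the 12 CD8 and 12 CD4 libraries, 6 higher and 5 lower in CD8; on the CPM scale this held for 10 of the 52 and for 10% of all tested genes.

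The remaining segments without overlap were Trav12-2, Trav8d-2 and Trav15-1-dv6-1, higher in CD8 cells, and Trav4-4-dv10 and Trav7-4, lower in CD8 cells. Trav12-2 was at 3.16, 5.05 and 6.34% in CD8 libraries and 1.45, 2.03 and 2.92% in CD4 libraries (log2 change 1.27, SE 0.11, adjusted p = 2.06e-09). Trav8d-2 was at 2.08, 2.72 and 3.23% in CD8 libraries and 0.794, 1.15 and 1.67% in CD4 libraries (log2 change 1.32, SE 0.13, adjusted p = 1.32e-08). Both lay at more than 90% unique stretches. Trav15-1-dv6-1 was at 1.33, 1.97 and 2.60% in CD8 libraries and 0.458, 0.891 and 1.259% in CD4 libraries (log2 change 1.22, SE 0.18, adjusted p = 4.17e-06). Its log2 change was 1.81 with replicates 1 and 2 alone and 0.77 with replicates 3 and 4 alone, past the threshold in each.

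Trav4-4-dv10 was at 0.977, 1.49 and 2.18% in CD8 libraries and 2.84, 3.55 and 4.18% in CD4 libraries (log2 change -1.09, SE 0.10, adjusted p = 1.13e-08). Trav7-4 was at 0.671, 1.19 and 1.91% in CD8 libraries and 2.06, 2.63 and 4.05% in CD4 libraries (log2 change -1.02, SE 0.17, adjusted p = 3.13e-05), with 39.8% unique stretches. Among rarer segments, Trav4-2 averaged 0.291 ± 0.113% in CD8 and 0.711 ± 0.233% in CD4 libraries, with a log2 change of -1.14 (SE 0.24, adjusted p = 0.000383). Trav9-1 averaged 0.480 ± 0.183% in CD8 and 0.952 ± 0.354% in CD4 libraries (log2 change -0.87, SE 0.24, adjusted p = 0.00334, and -0.57 with adjusted p = 0.112 in replicates 1 and 2 alone). Neither Trav4-2 nor Trav9-1 passed the filter on low counts in CD8 libraries taken alone.

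Of the 10 most used segments, Trav3-3, Trav7-5 and Trav13-1 showed the smallest differences. Trav3-3 averaged 4.16 ± 0.710% in CD8 and 3.78 ± 0.659% in CD4 libraries, with a log2 change of 0.24 (SE 0.10, adjusted p = 0.0437, edgeR). This was no longer past the threshold with a block of genotype by replicate number (adjusted p = 0.0680). The same held without any 1 of 16 libraries (adjusted p of 0.0505 to 0.0864). Trav13-1 averaged 3.53 ± 0.521% in CD8 and 3.09 ± 0.472% in CD4 libraries (log2 change 0.30, SE 0.09, adjusted p = 0.00941), and scaling by Trav counts ended that call (log2 change 0.19, adjusted p = 0.137). Trav7-5 averaged 3.26 ± 0.385% in CD8 and 3.91 ± 0.416% in CD4 libraries, with a log2 change of -0.15 (SE 0.10, adjusted p = 0.245).

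Families differed in whether their tested segments moved one way. All 3 tested Trav4 segments and all 3 Trav16 segments were called, the first lower and the others higher in CD8 cells. Of the Trav4 segments, Trav4-2 entered the test only through the CD4 libraries. Of 9 tested Trav6 segments 1 was called higher (Trav6-1, log2 change 1.00) and 4 lower, and of 7 tested Trav7 segments 2 were called higher and 2 lower. The higher ones, Trav7-3 and Trav7d-3, stayed called in 22 and 16 of 32 alternative fits (adjusted p of up to 0.277 and 0.272). Of 3 tested Trav12 segments 2 were called higher, among them Trav12-1 (log2 change 0.98, SE 0.14, adjusted p = 6.37e-06). The 2 tested segments each of Trav5 and Trav10 were not called, nor was Trav2. Trav17, Trav21-dv12, Trav1 and Trav19 are single segments; the first pair was lower and the second pair higher in CD8 cells. Trav17 had a log2 change of -0.54 (SE 0.16, adjusted p = 0.00519), and -0.28 with adjusted p = 0.316 in replicates 1 and 2 alone.

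The order along the locus did not rank these differences. Over the 52 tested segments, Spearman's rho between the order along the chromosome and the log2 change of CD8 over CD4 was -0.12, and called segments of both directions lay along its whole length. Over the 58 segments, the order correlated with the mean share at rho = 0.32. Between the percentage of unique 75-base stretches and the size of the log2 change rho was -0.01 (52 segments). Genes with the letter n summed to 15.7 ± 0.510% in CD8 and 13.9 ± 1.47% in CD4 libraries, those with d to 10.8 ± 0.824% and 11.3 ± 0.791%, and those with no letter to 73.5 ± 0.866% and 74.7 ± 1.73%, all with overlapping ranges. Segments of 1 locus share their libraries and neighbours, so these coefficients are descriptions.

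**Figure D4:**
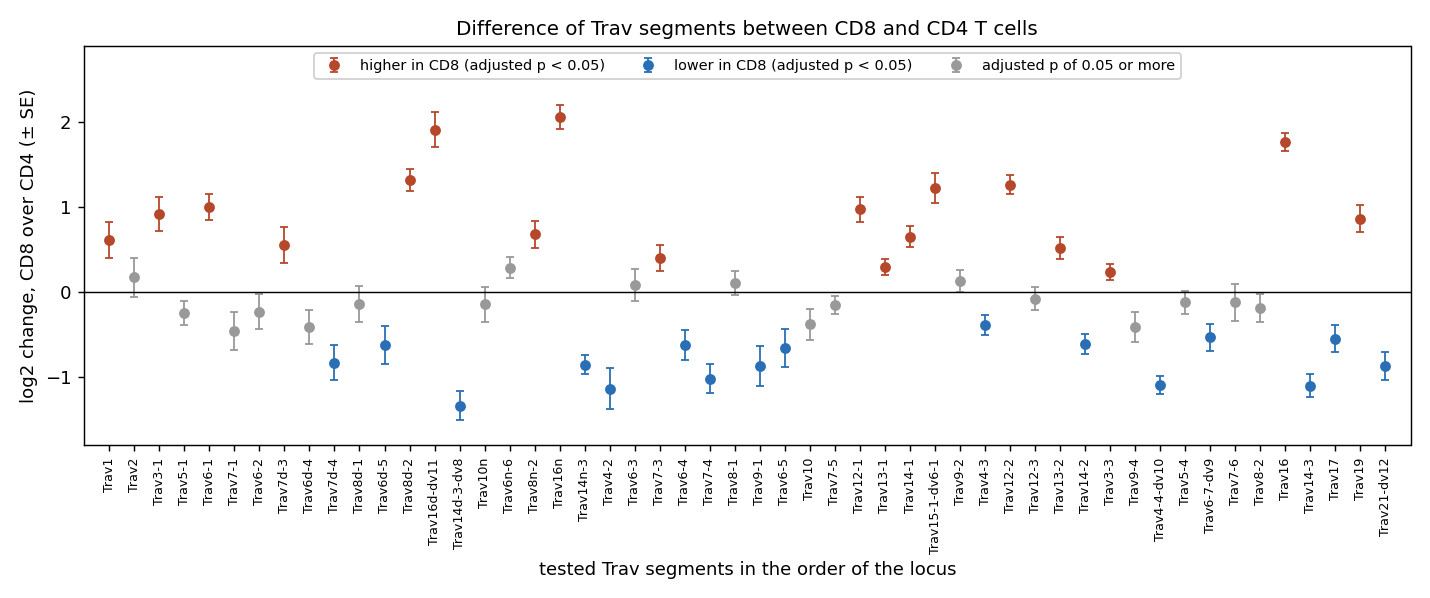
The log2 change of CD8 over CD4 (mean over genotypes, with its SE) of the 52 tested Trav segments, placed in their order along chromosome 14; red is called higher, blue called lower and grey not called. Red and blue points are spread over the whole locus, and the 3 Trav16 segments, in different copy blocks, are the highest at 1.77 to 2.06.

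The segments whose names share a delta label, 10 genes of which 7 were described, summed to 10.3 ± 0.881% in CD8 libraries and 13.9 ± 1.43% in CD4 libraries, lower in the CD8 library of all 12 pairs, with overlapping ranges. Of 6 tested, Trav16d-dv11 and Trav15-1-dv6-1 were called higher and 4 were called lower in CD8 cells. Trdc, the delta constant region, was at 1.24 to 2.65 CPM in CD8 and 0.590 to 1.86 CPM in CD4 libraries. Its log2 change was 0.80 (SE 0.15, adjusted p = 8.36e-05, edgeR). Trgc2, a gamma constant region, had a log2 change of 3.55 (SE 0.48, adjusted p = 1.63e-06, edgeR). This was the largest change of the listed receptor genes. Trgc2 passed the filter on low counts in CD8 libraries taken alone, but not in CD4 libraries taken alone. The 7 gamma delta T cell markers in the table (of 8 listed) summed to 2.34 to 3.67 CPM in CD8 and 1.33 to 2.84 CPM in CD4 libraries, with 1 of them at 0 in all CD4 libraries. Their part in the shares was not tested.

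Trav1, the MAIT segment, averaged 0.906 ± 0.361% in CD8 and 0.643 ± 0.166% in CD4 libraries. It did not pass the filter on low counts in CD4 libraries taken alone. Its log2 change was 0.62 (SE 0.21, adjusted p = 0.0175), 0.50 with adjusted p = 0.0586 when libraries were scaled by Trav counts, and 0.38 with adjusted p = 0.387 in replicates 3 and 4 alone. The 4 listed NKT markers summed to 159 to 228 CPM in CD8 and 87.5 to 232 CPM in CD4 libraries. Of these, Zbtb16, which encodes the factor PLZF that defines both MAIT and NKT cells, was at 0 to 0.144 CPM in CD8 and 0 to 0.0748 CPM in CD4 libraries. Klrb1c was at 0 to 0.0795 CPM in CD8 and 0 to 0.523 CPM in CD4 libraries. Nearly all of the NKT sum therefore came from Slamf6 and Ly6c2. Of the listed MAIT markers, Il18r1, a chain of the interleukin-18 receptor, was at 53.5 to 142 CPM in CD8 and 9.63 to 24.3 CPM in CD4 libraries, without overlap, and Mr1, which presents antigen to MAIT cells, at 8.67 to 15.4 and 7.93 to 13.8 CPM, with overlap. The part of these cells in the share of Trav1 was not tested. The 4 NK markers summed to 43.4 to 91.1 CPM in CD8 and 12.0 to 35.7 CPM in CD4 libraries. Klrb1c is also on the NK list, so at the levels given above nearly all of that sum came from its other members. The 6 B cell markers summed to 354 to 433 CPM in CD8 and 134 to 210 CPM in CD4 libraries, and the 4 myeloid markers to 0.206 to 0.972 and 0.0720 to 0.496 CPM. The part of the NK and B cell lists in the shares was not tested.

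Among 26 listed gene names of the receptor and its assembly, 23 were in the table and 18 were tested. The gamma constant regions were listed under both Trgc and Tcrg-C names. Of the 18 tested, 10 were higher and 6 lower in CD8 cells, where 27% of all tested genes were called higher and 27.6% lower. Trbc1 and Trbc2, the beta constant regions, had log2 changes of 0.34 (SE 0.06) and 0.43 (SE 0.08), and Cd3g, a chain of the CD3 complex, of 0.56 (SE 0.06). Cd247, the zeta chain, was lower at -0.18 (SE 0.03). Of the factors that bind the alpha enhancer, Ets1, Tcf12 and Tcf7 were higher (0.51, 0.31 and 0.37), and Lef1 and Runx1 lower (-0.29 and -2.07). The recombination genes Rag1 and Rag2 and the pre-T alpha gene Ptcra had too few counts to be tested. In the comparisons of genotypes Pou2af1 was the only one of these genes called, lower in KO cells of either type than in WT or Het cells.

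The difference between CD8 and CD4 cells was then taken within each genotype, from the fit on all 24 libraries. Of 52 tested segments, 16 were called in KO cells (9 higher and 7 lower; 24.1% of all tested genes were called), 16 in Het cells (9 and 7; 34.9% of all) and 22 in WT cells (11 and 11; 31.2% of all). With scaling by Trav counts the split in Het cells was 8 higher and 11 lower, with a shift of -0.15 in the median of all genes. In all, 26 segments were called in at least 1 genotype and 12 in all 3, and all 26 had the same sign in each genotype. The same counts were not made over all tested genes, so they do not set Trav segments apart from other genes. The segments called in all 3 were Trav16, Trav16n, Trav16d-dv11, Trav8d-2, Trav12-2, Trav15-1-dv6-1 and Trav6-1, higher, and Trav14n-3, Trav14d-3-dv8, Trav14-3, Trav4-4-dv10 and Trav7-4, lower. Trav14-1 had log2 changes of 0.68 (adjusted p = 0.0250) in KO, 0.51 (adjusted p = 0.0728) in Het and 0.78 (adjusted p = 0.00858) in WT cells.

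In the Trav16 and Trav14 families, use in cells without Pou2af1 lay close to that in control cells. The Trav16 family averaged 16.2 ± 0.749% in CD8 KO, 14.5 ± 0.960% in CD8 Het and 15.1 ± 1.57% in CD8 WT libraries, and 4.56 ± 0.996% in CD4 KO, 4.59 ± 0.468% in CD4 Het and 4.10 ± 0.639% in CD4 WT libraries (SD, n = 4 each). The Trav14 family averaged 13.6 ± 0.198% in CD8 KO, 13.6 ± 1.37% in CD8 Het and 14.6 ± 1.66% in CD8 WT libraries, and 21.3 ± 1.98% in CD4 KO, 21.5 ± 0.384% in CD4 Het and 20.8 ± 1.59% in CD4 WT libraries. For the Trav16 and Trav14 families each difference of KO or Het from WT was within the larger SD of the groups compared. Some other families differed by more. In CD4 KO and CD4 WT libraries, Trav5 averaged 4.22 ± 0.205% and 3.26 ± 0.315%, and Trav17 2.07 ± 0.321% and 1.17 ± 0.291%. In the same groups Trav3 averaged 4.25 ± 0.843% and 5.50 ± 0.886%, and Trav10 3.63 ± 0.573% and 4.55 ± 0.450%. Family differences between genotypes were not tested. Segments whose names share a delta label summed to 14.8 ± 1.41% in CD4 KO, 14.3 ± 0.909% in CD4 Het and 12.7 ± 1.24% in CD4 WT libraries. In CD8 cells they summed to 10.35 ± 1.00% in KO, 10.9 ± 0.539% in Het and 9.52 ± 0.451% in WT libraries. Over the 58 segments the median size of the difference in mean share was 0.161 percentage points for KO against WT in CD8 cells and 0.199 points in CD4 cells, against 0.405 to 0.482 points for CD8 against CD4 within a genotype.

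No Trav segment was called in any comparison of genotypes. In CD8 cells 47 segments were tested: at an unadjusted p under 0.05 there was 1 for KO against WT, there were 2 for Het against WT and 0 for KO against Het, by edgeR. In CD4 cells 49 were tested, with 3 for KO against WT, 1 for Het against WT and 0 for KO against Het. DESeq2 and limma also called 0 in each. Few other genes were called: 0.0634% of all tested genes for KO against WT and for Het against WT in CD8 cells, 0.0159% for KO against Het in CD8 cells, 0.0708% for KO against WT, 0.0865% for Het against WT and 0.0157% for KO against Het in CD4 cells. The median SE of a Trav log2 change was 0.265 for KO against WT in CD8 cells and 0.249 in CD4 cells. Larger differences than that were not called either, as for Trav17 and Trav5-4 below. A p that misses the threshold does not show that use was equal.

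**Figure D5:**
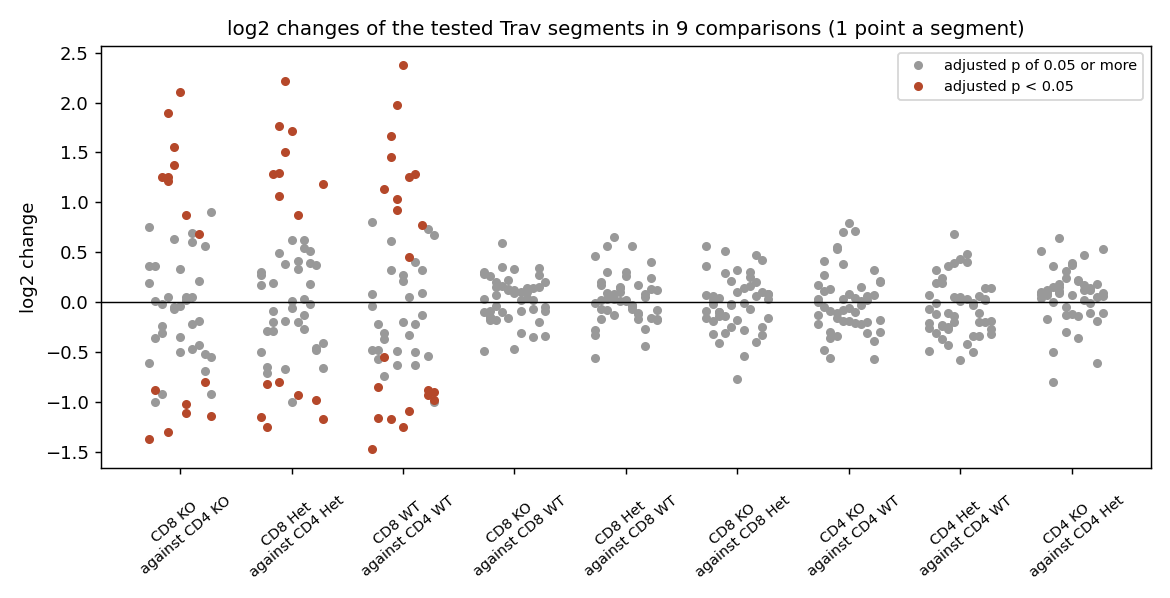
The log2 changes (vertical axis) of the tested Trav segments in 9 comparisons, 1 point a segment, with segments called at an adjusted p under 0.05 in red. The 3 comparisons of CD8 with CD4 cells reach 2.37 and -1.47 with 16 to 22 called segments, and the 6 comparisons of genotypes hold no called segment.

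The segments of lowest p show the scale of what was left. Trav17 was at 1.67, 2.21, 1.98 and 2.42% in CD4 KO and 1.57, 1.22, 1.76 and 2.15% in CD4 Het libraries, against 1.08, 0.794, 1.38 and 1.41% in CD4 WT libraries. KO and WT did not overlap, and Het lay between with overlap of both. The log2 change of KO over WT was 0.79 (SE 0.24, adjusted p = 1.00). Trav5-4 was at 2.34, 2.39, 2.42 and 2.71% in CD4 KO and 2.40, 2.21, 2.02 and 2.35% in CD4 Het libraries, against 1.61, 1.51, 1.62 and 1.91% in CD4 WT libraries. Both KO and Het lay above WT, with log2 changes of 0.55 (SE 0.16, adjusted p = 1.00) and 0.36 (SE 0.16, adjusted p = 0.625) over the shared WT libraries. The lowest p-values for segments lower in CD4 KO than in CD4 WT cells belonged to Trav3-3 (-0.39, SE 0.19) and Trav8-2 (-0.58, SE 0.31).

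In CD8 cells, Trav5-1 averaged 1.56 ± 0.173% in KO libraries, against 1.08 ± 0.396% in WT libraries (log2 change 0.59, SE 0.24, adjusted p = 0.987), and overlapped. Trav6-1, Trav13-1 and Trav1 had log2 changes of 0.33, -0.31 and -0.49 for KO against WT, none called. Trav13-1 did not overlap, at 2.84 to 3.13% in KO and 3.23 to 4.44% in WT libraries, and Trav6-1 and Trav1 did. For Het against WT, Trav12-1 was at 1.79, 2.10, 1.51 and 1.64% in CD8 Het libraries, against 1.25, 1.03, 1.07 and 1.20% in CD8 WT libraries, without overlap (log2 change 0.66, SE 0.24, adjusted p = 1.00). Trav4-4-dv10 followed with 0.57 (SE 0.22), and Trav8-2 and Trav14-1 had -0.44 (SE 0.27) and -0.27 (SE 0.19). The shares of Trav4-4-dv10 and Trav8-2 did not overlap either, and those of Trav14-1 did. For KO against Het in CD8 cells, the lowest p-values were those of Trav5-1 (0.51), Trav16 (0.29), Trav4-4-dv10 (-0.41) and Trav7-6 (-0.78), with adjusted p of 0.738 to 0.762 by edgeR. In that comparison Trav5-1 and Trav16 did not overlap, and Trav4-4-dv10 and Trav7-6 did.

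In CD4 cells, Het against WT gave Trav16n (0.68, SE 0.32) and Trav5-4 above 0, and Trav6-2 (-0.58, SE 0.25) and Trav12-2 (-0.43, SE 0.22) below it, with adjusted p of 0.558 to 0.625. KO against Het gave Trav8d-1 (0.53), Trav17 (0.37), Trav8-2 (-0.61) and Trav7-1 (-0.80), with adjusted p of 1.00. Counted on the share scale, 3 of 58 segments did not overlap between CD4 KO and CD4 WT libraries and 2 between CD8 KO and CD8 WT libraries; of all genes with a mean count of 10 or more, 1.48% and 1.96% did not overlap on the CPM scale. For Het against WT these were 3 segments in CD8 cells (1.46% of genes) and 2 in CD4 cells (6.23%), and for KO against Het 4 in CD8 cells (2.7%) and 0 in CD4 cells (2.7%).

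The effect of KO did not differ detectably between the cell types. The test of the difference, KO over WT in CD8 minus KO over WT in CD4 cells, called 0 of 52 segments (1 at an unadjusted p under 0.05 by edgeR, 0 by DESeq2 and 1 by limma, none called by either; 0.00753% of all tested genes were called). The lowest p-values were those of Trav5-4 (-0.72, SE 0.33) and Trav17 (-0.78, SE 0.39) below 0, and of Trav12-1 (0.64, SE 0.36) and Trav12-2 (0.45, SE 0.26) above 0, all with an adjusted p of 1.00.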

How the data were processed

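RNA of 24 libraries was analysed: 4 each of CD8 and CD4 T cells of KO, Het and WT mice, grouped by the labels. Per the submitters' processing notes, the authors used Trimmomatic 0.35, STAR 2.7.1a, DESeq2 1.26.0 and GRCm38; no source used here gives settings, annotation release, strand or read length. The deposited count table holds whole-number counts per gene, with unmapped, multimapping, ambiguous and unassigned reads (31.6 to 35.0% of reads) as 4 separate lines, left out of library sizes. The deposited normalized table is a signal, counts divided by 1 size factor per library, and served 1 alternative.

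All genes named Trav were taken, and shares were computed per library. Tests used edgeR 4.0.16 (filterByExpr, TMM, quasi-likelihood test, Benjamini-Hochberg over all tested genes, threshold 0.05): genotypes on the 12 libraries of a cell type, CD8 against CD4 and the interaction on all 24, with TMM factors of 0.976 to 1.02. The scripts were tested on simulated counts. All 130 Trav IDs had the same coordinates in GENCODE M21, whose transcripts gave the unique stretches. No described segment overlaps an exon of another gene. Any 2 libraries of a group differed by a chi-square of at least 2.78 per degree of freedom, so none was a repeat of another. In CD4 WT cells it was 4.05 between replicates 1 and 2 and 11.1 between 3 and 4, against 29.4 to 40.5 across these pairs. In CD4 Het cells it was 4.50 and 2.78, against 9.86 to 12.2. CD8 groups did not all split this way, as in CD8 Het cells with 3.21 and 20.3, against 15.4 to 27.3. The cause was not tested. The other tools were R 4.3.3, limma 3.58.1 (log2 of the normalized value + 1) and DESeq2 1.42.0. Alternatives were other scalings, no filter, DESeq2, limma, other library sets in the fit, leaving out each library, and the block.

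Same-numbered CD8 and CD4 libraries of a genotype deviated together over all genes (correlations 0.147 to 0.451). So did same-numbered CD4 libraries of different genotypes (0.132 to 0.580), and numbers were taken to pair them. For CD8 libraries of different genotypes not every correlation was over 0.1 (-0.226 to 0.403), so these were not taken as paired. The main fits held group means and no block, so the pairing entered the fits only in the alternative with a block. In same-numbered CD8 and CD4 libraries, deviations of the Trav shares did not go together (correlations -0.296 to 0.296). Counts of pairs on the share scale are therefore descriptions. The segments named with values are the 10 of largest mean share; up to 6 called each way in CD8 against CD4 with a mean share of at least 0.5%; the 2 of lowest p each way in each comparison with no call; Trav1, Trav11 and Trav14 segments; and those beside the limit of 100 counts. Trav21-dv12, Trav19, Trav7-3, Trav7d-3, Trav3-1, Trav7d-4 and Trav6d-5 were named outside this rule, after their values were seen. The summed level of the MAIT marker list is not reported here. The members and lists were chosen with earlier results of these data known.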

Additional observations from a re-analysis of the deposited data

Results flagged for a closer look

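Within groups of 4 libraries, the share of 31 segments was checked for a library whose gap to the nearest other exceeded Dixon's 95% critical share of the group's range. Of 186 groups 11 did, where chance gives about 1 in 20, or 9.3. In CD8 KO cells these were Trav7-5 in replicate 4 (2.77%, others 3.73 to 3.92%), Trav13-1 in replicate 2 (2.84%, others 3.10 to 3.13%), Trav6-2 in replicate 2 (1.83%, others 0.671 to 0.781%) and Trav9n-4 in replicate 1 (0.163%, others 0.316 to 0.347%). In the other CD8 groups they were Trav16n in Het replicate 2 (6.66%, others 5.10 to 5.30%) and Trav5-1 in WT replicate 3 (1.68%, others 0.872 to 0.902%). In CD4 cells they were Trav14n-3 (3.81%, others 5.77 to 6.11%) and Trav16d-dv11 (0.266%, others 0.969 to 1.03%) in KO replicate 2, Trav8d-1 in Het replicate 4 (0.490%, others 0.611 to 0.616%), and Trav7-4 in WT replicate 2 (4.05%, others 2.54 to 2.77%) and Trav6-2 in WT replicate 4 (1.11%, others 1.59 to 1.62%). The values for Trav16d-dv11 and Trav9n-4 rest on 3 counts, and that for Trav8d-1 on 5.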

How the results depend on the processing

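All 34 segments called between CD8 and CD4 cells kept their direction in the 32 alternative fits, and 19 stayed called in all of them; the sign of Trav14-1 and Trav6-1 turned only on the share scale with copies summed, given last. The number called was 34 with DESeq2 size factors, 29 without the filter, 31 with DESeq2, 33 with limma and 32 to 36 with 1 library left out. With the replicate block it was 35 for the mean over genotypes, 16 in KO, 17 in Het and 22 in WT cells; 33 of the 34 were among the 35, Trav3-3 was lost, and no call was made or lost in the comparisons of genotypes. With replicates 1 and 2 alone, an alternative added after seeing the data, 22 were called; with replicates 3 and 4 alone 27 were, and 12 in WT cells. The cause was not tested. With 1 library left out, 14 to 18 were called in KO, 14 to 19 in Het and 17 to 21 in WT cells, and 0 in the 6 comparisons of genotypes and the interaction. Replicates 1 and 2 alone turned the log2 change of segments that were not called: Trav8d-1 to 0.10, Trav7-5 to 0.059, Trav5-4 to 0.10, Trav7-6 to 0.16 and Trav8-2 to 0.25. In replicates 3 and 4 alone Trav8-2 was at -0.65 (adjusted p = 0.0113). Trav7-1 was called without CD4 KO replicate 2 (-0.54, adjusted p = 0.0412) or CD8 WT replicate 1 (-0.55, adjusted p = 0.0465), and when scaled by Trav counts (-0.56, adjusted p = 0.0480), and Trav6-2 without CD8 KO replicate 2 (-0.42, adjusted p = 0.0391). Summing copies per family, which by construction mixes segments, turned the log2 ratio of shares for Trav14-1 to -0.60, for Trav8-2 and Trav8d-1 to 0.31 and for Trav6-1 to -0.25. About 1300 Trav counts per library limit every share, and segments with no unique stretch could not be measured.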
